A study of Mus musculus with 4 samples.

Results

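The Id family comprises 4 genes, Id1, Id2, Id3 and Id4, which encode helix-loop-helix (HLH) proteins that inhibit DNA binding and differentiation. The family was described here in mouse mammary tissue as all probe sets whose platform annotation gives exactly one of these 4 symbols. All 4 were found among the 18193 genes named on the array, with 8 of 45037 probe sets: 1 for Id1, 3 for Id2, 1 for Id3 and 3 for Id4. RNA was measured on 4 Affymetrix arrays, 2 from mammary tissue labelled STAT5 WT and 2 from mammary tissue labelled STAT5 KO, with no treatment given in the labels. Per the design text, each array came from 1 of 2 mice of its genotype, all collected at 6 days, counted from an event that the text does not name. STAT5, the factor that the labels give as knocked out, carries the prolactin signal to the nucleus. The series title names STAT5A and asks about luminal progenitors, from which the milk-secreting alveoli arise. The labels name no strain, no driver of a gene deletion, no deleted exon and no age, and do not say whether WT and KO mice were littermates.

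Id proteins carry a helix-loop-helix dimerisation domain without the basic region that contacts DNA. They pair with the ubiquitous E proteins, encoded by Tcf3, Tcf4 and Tcf12, and keep them from forming DNA-binding dimers with tissue-specific basic HLH (bHLH) factors. Bone morphogenetic proteins (BMPs) are the classic inducers of Id transcription through SMAD proteins. In the mammary gland, Id2 is needed for alveolar growth in pregnancy, Id4 is known from basal cells and ductal growth, and Id1 has been tied to proliferating epithelial cells. Id1 and Id3 are also prominent in endothelium.

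The windows directly before the transcription start are shown because the genes differed in direction: Id4 and Id2 gave lower and Id3 higher signals in KO tissue. Of these differences only that of Id4 passed the threshold set out below, and those of Id2 and Id3 did not. RefSeq windows of 250 bases on GRCm38.p6 were matched for Id2, Id3 and Id4, 3 of the 4 genes. They are written 5′ to 3′ on the gene's strand and end at the base before the start. Capitals mark matches to 3 motifs: TTCNNNGAA (the STAT half-site pair), CANNTG (the E-box bound by E proteins) and GGCGCC (a GC-rich element bound by BMP SMADs). Each motif reads the same on both strands, and no 2 matches overlap in the windows shown. The Id4 window is chr13:48260866-48261115 on the plus strand, the Id2 window chr12:25096093-25096342 on the minus strand and the Id3 window chr4:136143572-136143821 on the plus strand.
Id4: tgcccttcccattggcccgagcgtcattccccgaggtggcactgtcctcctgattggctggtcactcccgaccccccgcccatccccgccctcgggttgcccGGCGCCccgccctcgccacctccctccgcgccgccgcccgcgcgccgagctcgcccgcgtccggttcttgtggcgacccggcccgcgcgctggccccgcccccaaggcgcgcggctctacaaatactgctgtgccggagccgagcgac
Id2: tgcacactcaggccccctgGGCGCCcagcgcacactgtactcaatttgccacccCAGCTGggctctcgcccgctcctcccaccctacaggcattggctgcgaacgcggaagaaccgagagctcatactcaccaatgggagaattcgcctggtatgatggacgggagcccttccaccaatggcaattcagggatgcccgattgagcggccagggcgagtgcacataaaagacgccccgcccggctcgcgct
Id3: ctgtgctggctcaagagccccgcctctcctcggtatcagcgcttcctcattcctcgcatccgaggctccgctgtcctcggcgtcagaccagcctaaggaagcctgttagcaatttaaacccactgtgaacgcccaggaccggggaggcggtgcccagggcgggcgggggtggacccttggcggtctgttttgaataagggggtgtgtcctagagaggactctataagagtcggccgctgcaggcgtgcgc

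None of the 3 windows held TTCNNNGAA, which was present in 7.02% of all 32851 windows of this length. GGCGCC occurred once before Id4, from position -148 to -143 relative to the start, and once before Id2, from -231 to -226, but not before Id3. It was present in 9.59% of all windows. CANNTG occurred once before Id2, from -196 to -191, as CAGCTG, and in 66.2% of all windows. G and C made up 75.6% of the Id4 window and 62.8% of each of the other two. A match is only a match of letters in these windows.

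The arrays carried a common scaling, with median signals from 121 to 131. Stat5a and Stat5b, the genes that encode STAT5, each had 2 probe sets, and all 4 were lower on both KO arrays, at 44.6% to 61.7% of the WT mean. None passed the threshold (limma adjusted p from 0.102 to 0.246). Their KO replicate 2 signals, 29.1% to 47.0% of the WT mean, were below those of KO replicate 1, 60.2% to 84.1%. As a check of the tissue label, all 22 general epithelial markers found on the array were bright enough to be tested. So were all 12 adipocyte, 17 endothelial, 11 fibroblast and matrix and 11 macrophage markers, whereas none of the 6 B cell markers was. The check thus does not single out epithelium.

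KO was compared with WT by limma on log2(signal + 16), a scale on which the changes of dim probe sets are understated. The test covered the brighter 22519 probe sets, cut at the median of the average log2 value of all probe sets, a signal of 126. An adjusted p under 0.05 after Benjamini-Hochberg adjustment over all of them was the threshold, which 450 probe sets, or 2%, passed (1.04% lower and 0.955% higher in KO). Of these calls 47.8% were higher in KO, a share that was 62.4% after median centring and 81.3% when arrays were centred on epithelial markers. Of the 7 Id probe sets tested, 3 passed as lower and 0 as higher. The 3 are all of Id4 and share 1 gene, so they are not independent of each other. At an unadjusted limma p under 0.05 the numbers were 5 lower and 1 higher, where 10.6% of all tested probe sets were lower and 9.01% higher. Both KO arrays lay below both WT arrays for 5 of the 7 and above them for 2, against 28% and 23.9% of all tested probe sets. In both counts the 5 are the tested probe sets of Id4 and Id2, so they are not independent of each other either.

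**Figure D1:**
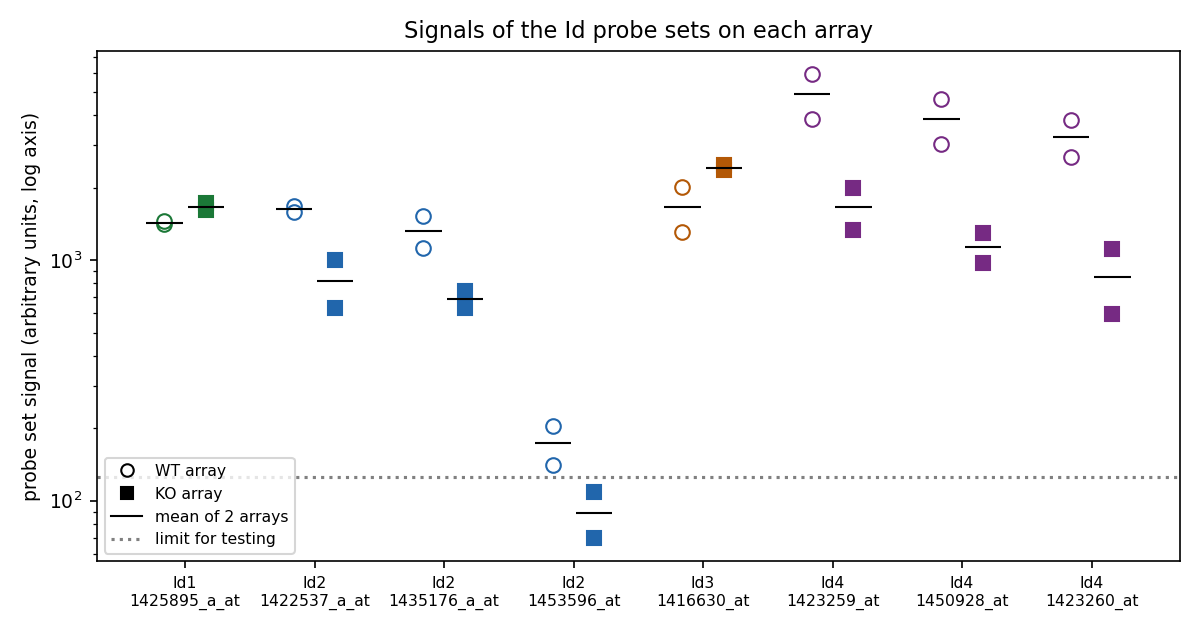
Signal of each Id probe set (log axis, arbitrary units) on the 2 WT arrays (open circles) and the 2 KO arrays (filled squares), with the mean of each pair as a bar and the limit for testing as a dotted line. All 3 Id4 and all 3 Id2 probe sets are lower on both KO arrays, those of Id1 and Id3 are higher on both, and the dim Id2 probe set 1453596_at sits around the limit.

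Id4 fell in KO tissue, to between 26.2% and 34.0% of its WT signal depending on the probe set. Id4, the family member known from basal cells and ductal growth, is represented by its brightest probe set, 1423259_at. It read 3874 and 5946 in WT against 1337 and 2002 in KO. Both KO arrays were far below both WT arrays, and the higher of them reached 40.8% of the WT mean. The means were 4910 ± 1465 in WT and 1669 ± 470 in KO (SD, n = 2). The difference on the log2 scale, -1.54 (SE 0.26), had a 95% interval of -2.16 to -0.93 (limma adjusted p = 0.0427). Its size exceeded that of 98.7% of the tested genes, each represented by 1 probe set.

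The other 2 Id4 probe sets gave larger falls. Probe set 1450928_at read 3053 and 4673 in WT against 971 and 1296 in KO, or -1.74 in log2 (limma adjusted p = 0.0308). Probe set 1423260_at read 2692 and 3825 in WT against 599 and 1108 in KO, or -1.96 in log2 (limma adjusted p = 0.0359). In all 3 the order of the arrays was the same, with WT replicate 2 highest and KO replicate 1 lowest. The annotation gives the same source sequence accession for all 3, so they are not separate evidence for the gene. Tissue RNA was measured in bulk, so fewer cells of a type and less RNA per cell cannot be told apart.

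The Id4 calls changed with the WT array left out and with the choice of tested probe sets, and not alike for all 3. For the brightest probe set, the limma adjusted p rose to 0.0501 when WT replicate 1 was left out, to 0.171 when WT replicate 2 was, 0.125 with no filter on dim probe sets, 0.0532 with a filter at the 75th percentile, 0.0674 with no variance trend and 0.191 after centring on epithelial markers, always with a negative difference. None of the 3 probe sets passed with no filter (adjusted p from 0.105 to 0.125), with no trend (0.0503 to 0.0674) or without WT replicate 2 (0.0968 to 0.171), whereas all 3 passed with either KO array left out. Without WT replicate 1 only 1450928_at passed (-2.04, adjusted p = 0.0312). With the 75th percentile filter 1450928_at (adjusted p = 0.0372) and 1423260_at (adjusted p = 0.0456) passed.

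Id2 was lower in KO tissue, at 49.9% of WT for its brightest probe set, but missed the threshold. Id2, the member needed for alveolar growth in pregnancy, read 1683 and 1589 in WT against 632 and 1003 in KO for its brightest probe set, 1422537_a_at. The WT arrays were close to each other and the KO arrays were spread, at 38.6% and 61.3% of the WT mean. The difference on the log2 scale, -1.02 (SE 0.22), had a 95% interval of -1.55 to -0.49 (limma adjusted p = 0.0686). Its second probe set, 1435176_a_at, read 1124 and 1523 in WT against 630 and 747 in KO, which differ by -0.92 in log2 (SE 0.19, limma adjusted p = 0.0628).

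The dimmest Id2 probe set, 1453596_at, was not tested, because its mean log2 value of 7.12 lay just under the limit of 7.15. It read 205 and 141 in WT against 69.8 and 109 in KO, or 51.6% of the WT mean. The 3 Id2 probe sets thus lay within 49.9% to 52.0% of WT, and each was lower on both KO arrays, as were 28% of all tested probe sets. They measure 1 gene on the same arrays, so they are not independent of each other. Without KO replicate 2 the Id2 difference was -1.35 for the brightest probe set and -1.04 for the second, from a fit with 1 KO array. For the brightest probe set it was -0.70 without KO replicate 1, -0.98 without WT replicate 1 and -1.06 without WT replicate 2. With no filter on dim probe sets the limma adjusted p of that probe set was 0.157.

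Id3 and Id1 gave higher signals on both KO arrays, and neither passed the threshold. Id3 read 2021 and 1314 in WT against 2485 and 2362 in KO. Its WT arrays were far apart and its KO arrays close together, so the gap between genotypes was narrow on the side of WT replicate 1. The difference on the log2 scale, 0.57 (SE 0.21), had a 95% interval of 0.07 to 1.07 (limma adjusted p = 0.205). Leaving out WT replicate 1 gave 0.88 (adjusted p = 0.0937) and leaving out WT replicate 2 gave 0.26 (adjusted p = 0.645), so the size changed with the WT array that was kept.

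Id1 read 1413 and 1448 in WT against 1726 and 1610 in KO. The KO mean was 117% of WT, and the arrays within each genotype lay close together. The difference on the log2 scale, 0.22 (SE 0.13), had a 95% interval of -0.09 to 0.53 (limma adjusted p = 0.412). This size exceeded that of 52.7% of the tested genes, against 86.4% for Id3 and 96.0% for Id2. After centring each array on epithelial markers, which moved the median of all probe sets to 0.36, the difference was 0.61 for Id1 and 0.96 for Id3, still without a call (limma adjusted p = 0.624 and 0.356).

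**Figure D2:**
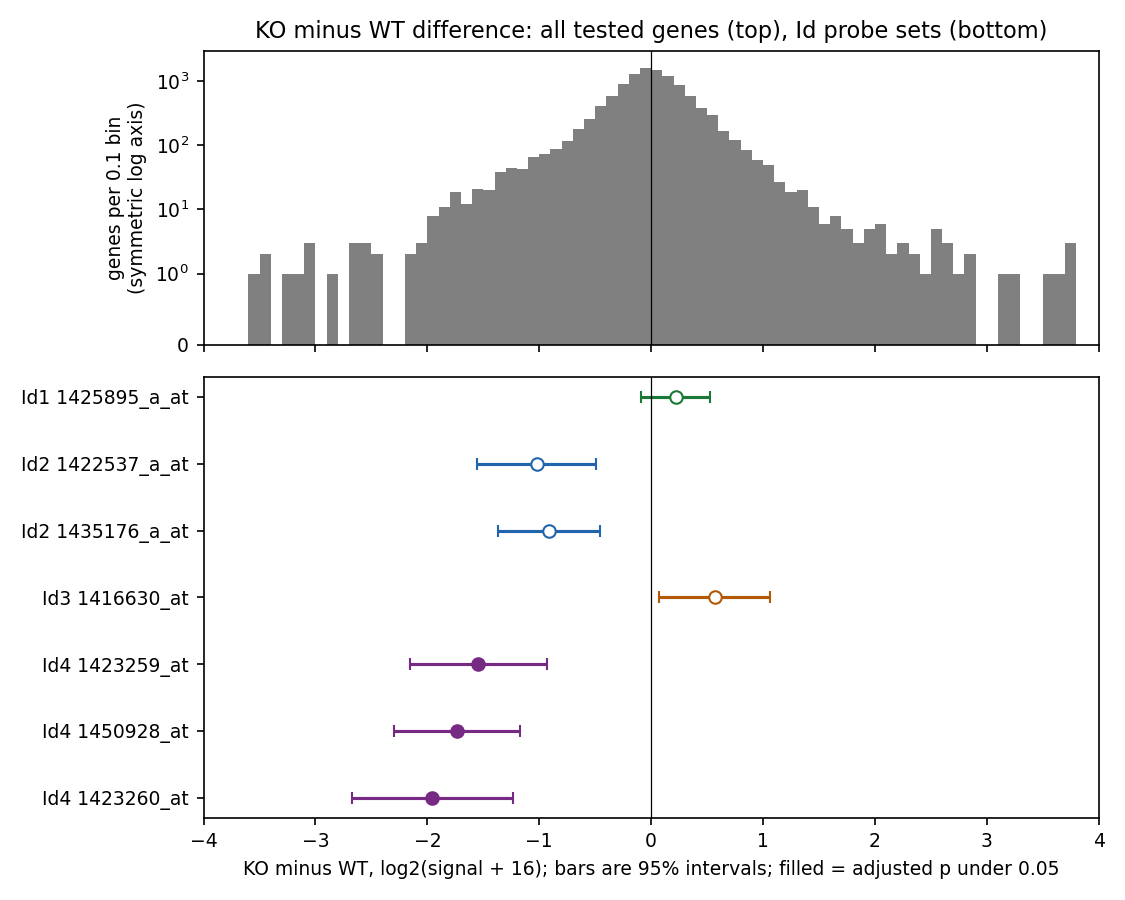
Top, number of tested genes by KO minus WT difference on the log2(signal + 16) scale in bins of 0.1 (6 genes beyond 4 in size are not drawn). Bottom, the 7 tested Id probe sets with 95% intervals from the limma fit, filled where the adjusted p was under 0.05. The 3 Id4 probe sets lie between -1.96 and -1.54 and are filled, those of Id2 lie at -1.02 and -0.92, and Id1 and Id3 lie above 0.

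**Figure D3:**
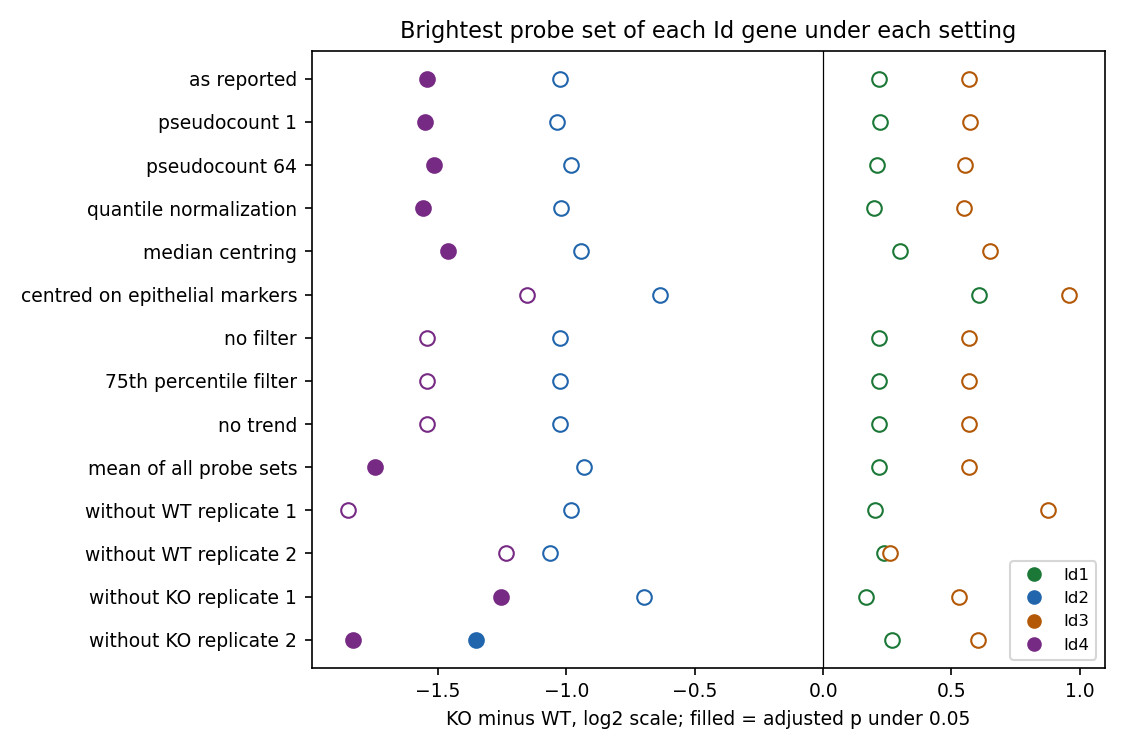
KO minus WT difference of the brightest probe set of each Id gene (log2 scale) under the reported setting and each alternative, filled where the adjusted p was under 0.05. Id4 and Id2 stay below 0 and Id1 and Id3 above 0 in every row, Id4 ranges from -1.85 to -1.15, and Id2 is filled only without KO replicate 2, at -1.35.

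The paralogs were set against each other by the difference between their KO minus WT log2 differences, computed within each array so that the scaling of an array cancels. All 6 pairs were compared, each by an exact two-sided permutation test of 2 against 2 arrays, which cannot give a p below 0.333, and each gave that value (0.333 after Benjamini-Hochberg adjustment over the 6). This p was fixed by the number of arrays and bears on no pair, so the gaps are given as values. The widest gap was between Id3 and Id4, at 2.11, and measured from the WT mean it was 2.44 for the first KO replicate and 1.79 for the second. Id1 exceeded Id4 by 1.76 and Id2 by 1.24, and Id2 minus Id3 was -1.59.

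Members on the same side of 0 lay closer. Id2 exceeded Id4 by 0.52, where the WT arrays had an SD of 0.49 for the same quantity, and this was 0.17 without WT replicate 2. Id1 minus Id3 was -0.35 against a WT SD of 0.46, and it was -0.02 without WT replicate 2. The gaps of Id1 or Id3 to Id2 or Id4 each kept their sign with any 1 array left out. The smallest such gap was 0.87, for Id1 minus Id2 without KO replicate 1.

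Profiles most like those of each Id gene were found by the root mean square difference of log2 values over the 4 arrays, after each probe set's mean was subtracted, with 1 probe set per gene. For Id4 the nearest were Rps6ka6, a ribosomal S6 kinase, at 0.0337, Rrm2, the small subunit of ribonucleotide reductase, at 0.0361, and Cks2, a subunit of cyclin-dependent kinases, at 0.0511. Nearness to Id4 fixes their direction, so their own differences are not counted here. For Id2 the nearest were the desmosomal cadherin gene Dsg2 at 0.0335, Phlda1 at 0.0525 and B4galnt4 at 0.0547. For Id3 they were Grina at 0.0196, the glutathione transferase gene Gstm1 at 0.0265 and Pik3ip1, an inhibitor of phosphoinositide 3-kinase, at 0.0279. For Id1 the second and the third nearest were Ccdc32 at 0.0083 and Castor2 at 0.0086. The Rrm2 and Gstm1 probe sets carry the suffix for probes that may also match other transcripts. Within a distance of 0.1 lay 8 genes for Id4, 21 for Id2, 63 for Id3 and 1434 for Id1, so a near neighbour of the flat Id1 profile is common.

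The E proteins, the direct partners that Id proteins sequester, did not pass in either direction, where 2.57% of the 11360 tested genes did. All 3 were tested, and 0 were lower or higher at an unadjusted limma p under 0.05. Of all tested genes 10.8% were lower and 10.4% higher at that unadjusted p, the background for each such count in the lists that follow. Tcf3, which encodes E12 and E47, read 2023 and 2207 in WT against 1604 and 1877 in KO, or -0.28 in log2 (limma adjusted p = 0.336). Tcf12 differed by -0.03 (adjusted p = 0.918) and Tcf4 by -0.03 (adjusted p = 0.934), and both overlapped between genotypes.

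The other bHLH factors listed, which hold tissue-specific partners of E proteins but also Hes, Hey and Bhlhe genes, were mostly dim. Of 31 on the array 11 were tested, none passed, and 2 were higher and 0 lower at an unadjusted limma p under 0.05. The largest differences were -0.81 for Bhlhe40, a transcriptional repressor within the circadian clock (limma adjusted p = 0.303), and 0.51 for Twist1, a mesenchymal factor (adjusted p = 0.111). Bhlhe40 overlapped between genotypes and passed without KO replicate 1 at -1.40 (adjusted p = 0.0353). Among 14 tested regulators and other partners of Id proteins none passed, with 1 higher and 3 lower at an unadjusted p under 0.05. Usp1, the deubiquitinase that stabilises Id proteins, differed by -0.71 (limma adjusted p = 0.0801), from 1520 and 1931 on the WT arrays to 988 and 1103 on the KO arrays. Atf3, a stress-induced repressor of Id1, differed by -0.58 (adjusted p = 0.234).

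Genes of BMP signalling, upstream of Id transcription, gave no call. Of 13 ligands on the array 7 were tested, with a median log2 difference of 0.34 against -0.01 for all tested genes, 1 with a WT mean under the limit for testing, and 1 higher and 1 lower at an unadjusted limma p under 0.05. Bmp4 read 234 and 143 in WT against 445 and 308 in KO, a difference of 0.95 (limma adjusted p = 0.134). Bmp7 went the other way, from 451 and 661 to 284 and 352, a difference of -0.76 (adjusted p = 0.136). Of 9 tested receptors and coreceptors, 6 lay higher on both KO arrays and 0 lower, against 26.2% and 27.5% of all tested genes. Their median difference was 0.29, and 1 was higher at an unadjusted p under 0.05. The largest differences among those tested were 0.47 for the coreceptor gene Rgma (adjusted p = 0.280) and 0.45 for the endothelial receptor gene Acvrl1 (adjusted p = 0.199). These counts leave out 2 receptor genes too dim on average to be tested. One is Bmpr1b, which encodes a type I BMP receptor and was named after its values were seen. It read 139 and 90.1 in WT against 14.1 and 13.1 in KO, or 11.9% of the WT mean, a log2 difference of -2.12 without a test. The other, the coreceptor gene Hjv, lay higher on both KO arrays.

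Of 5 tested SMADs of the BMP pathway none passed, with 1 higher and 0 lower at an unadjusted limma p under 0.05. Smad1 and Smad5, the receptor-activated members, differed by -0.0024 and -0.09 (limma adjusted p = 0.995 and 0.776). Smad4, the shared partner, differed by -0.29 (adjusted p = 0.264), and Smad9 was too dim to test. Of the inhibitory SMADs, themselves targets of the pathway, Smad6 read 583 and 410 in WT against 812 and 800 in KO, a difference of 0.70 (adjusted p = 0.118). Smad7 differed by -0.23 (adjusted p = 0.629).

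Among BMP antagonists, 1 gene lay next to the threshold. Of 10 tested none passed, with 2 higher and 1 lower at an unadjusted limma p under 0.05. Nbl1, which encodes the antagonist DAN, read 743 and 577 in WT against 1208 and 1506 in KO, a difference of 1.02 (limma adjusted p = 0.0507). It passed with a pseudocount of 64 (adjusted p = 0.0479), after median centring (0.0435), after centring on epithelial markers (0.0460) and without KO replicate 1 (0.0311). Chrdl1, a chordin-like antagonist, differed by 0.96 (adjusted p = 0.152) and passed without KO replicate 2 at 1.41 (adjusted p = 0.0145). Sostdc1, an antagonist of BMP and Wnt signals added after its values were seen, read 516 and 630 in WT against 219 and 396 in KO, a difference of -0.91 (adjusted p = 0.144). It passed without KO replicate 2 at -1.32 (adjusted p = 0.0179).

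In the TGF-beta pathway, which represses Id genes in epithelial cells, none of 17 tested members passed, with 2 higher and 0 lower at an unadjusted limma p under 0.05. The largest differences were 0.61 for Ltbp4, a binding protein of latent TGF-beta (limma adjusted p = 0.0662), and 0.43 for Tgfbi, a matrix protein (adjusted p = 0.201). Among 6 tested inhibitors of cyclin-dependent kinases, some of them targets of E proteins, none passed and 1 was lower at an unadjusted p under 0.05. Cdkn1a differed by -0.64 (adjusted p = 0.468) and overlapped between genotypes, at 874 and 581 in WT against 274 and 736 in KO. Cdkn1c, lower on both KO arrays, differed by -0.57 (adjusted p = 0.154). Without KO replicate 2 the difference was -1.33 for Cdkn1a and -0.80 for Cdkn1c.

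**Figure D4:**
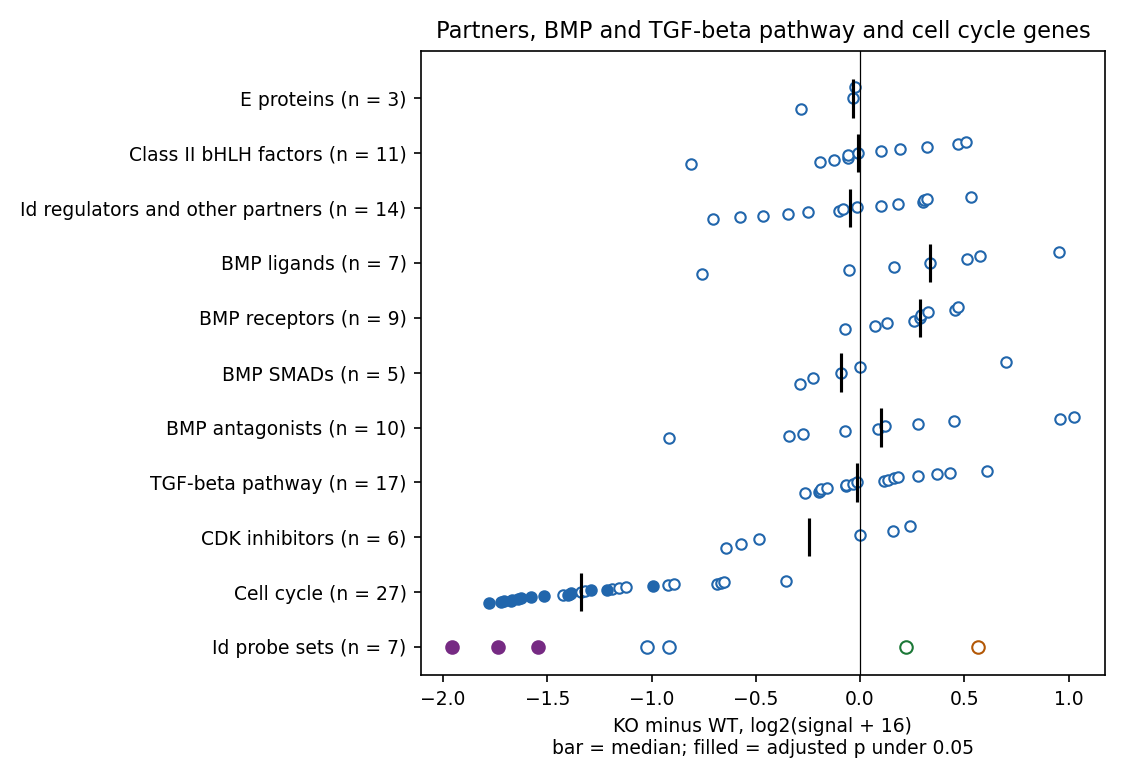
KO minus WT difference on the log2(signal + 16) scale of each tested gene of the partner, pathway and cell cycle lists, with the list median as a bar, and of the 7 Id probe sets, filled where the adjusted p was under 0.05. Apart from cell cycle genes and the 3 Id4 probe sets no point is filled, and the BMP ligand and receptor medians lie at 0.34 and 0.29.

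Cell cycle genes were lower where Id4 was lower. Of 27 tested, 14 fell and 0 rose, against 1.36% and 1.21% of all tested genes, and the median difference was -1.34. Of the 27, 4 had a KO mean under the limit and were tested through their WT signal (Bub1, Cdc6, Kif11 and Ttk). All 4 are among the 14, so that count rests in part on the filter. On KO replicate 1 the median was -1.56 and on KO replicate 2 -1.17, beside -1.83 and -1.25 for Id4 and -1.35 and -0.70 for Id2. The number that fell was 7 without WT replicate 1, 0 without WT replicate 2, 9 without KO replicate 1 and 23 without KO replicate 2. It was also 0 with no filter, 1 after centring on epithelial markers and 5 to 8 with the 75th percentile filter, no trend or median centring. The part of these genes in the Id4 fall was not tested.

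Markers of the cell types in the tissue also moved, and their part in the Id differences was not tested. Of 22 general epithelial markers 1 rose and 1 fell (Krt7 and Ehf), against 1.21% and 1.36% of all tested genes. At an unadjusted limma p under 0.05, 2 were higher and 9 lower, against 10.4% and 10.8% of all tested genes. Of the 22, 12 were lower on both KO arrays, 3 were higher on both and 7 overlapped. Of all tested genes 27.5% were lower and 26.2% higher on both KO arrays. The median difference of the 22 was -0.43 (-0.69 for the first KO replicate and -0.16 for the second). Their summed signal was 54744 and 57358 in WT and 37501 and 58561 in KO and overlapped between genotypes. Of 16 basal and myoepithelial markers 1 fell (Oxtr) and 0 rose, and at an unadjusted limma p under 0.05, 4 were lower and 0 higher. Of the 16, 5 were lower on both KO arrays, 1 was higher on both and 10 overlapped. Their median was -0.25 (-0.56 for the first KO replicate and 0.04 for the second). Relative to the epithelial markers the brightest Id4 probe set differed by -1.15 and the brightest Id2 probe set by -0.63. Neither passed on this scale (limma adjusted p = 0.191 and 0.609), and of the other Id4 probe sets 1423260_at passed (-1.57, adjusted p = 0.0206) and 1450928_at did not (-1.35, adjusted p = 0.0754).

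Luminal progenitor markers split, with 3 of 12 lower past the threshold and 1 higher (median -0.33). Hormone-sensing luminal markers also split, with 1 lower and 1 higher of 7 (median -0.26). Past the threshold were 1.36% of all tested genes as lower and 1.21% as higher. At an unadjusted limma p under 0.05, 6 luminal progenitor markers were lower and 4 higher. For hormone-sensing markers the numbers were 3 and 2, against 10.8% and 10.4% of all tested genes.

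Beside the higher Id1 and Id3 signals stood those of endothelium, where both genes are known to be active, with 0 of 17 markers past the threshold, 3 higher and 0 lower at an unadjusted limma p under 0.05, and a median of 0.15. The summed endothelial signal was 22849 and 21888 in WT and 26107 and 23330 in KO. Macrophage markers had a median of 0.52 (0 of 11 past the threshold, 6 higher and 1 lower at an unadjusted p under 0.05), adipocyte markers 0.15 (0 of 12, with 1 higher and 0 lower at an unadjusted p under 0.05) and fibroblast and matrix markers 0.05 (1 of 11 past the threshold, as higher). The shares of all tested genes at that unadjusted p are again 10.4% higher and 10.8% lower, and past the threshold 1.21% and 1.36%. Of the 11 macrophage markers, 1 had a KO mean under the limit for testing and was tested through its WT signal. Of 10 tested skeletal muscle markers 8 had a WT mean under the limit for testing, so they were tested through their KO signal and no count is given. The summed signal of all 12 skeletal muscle markers on the array was 1598 and 512 in WT and 10629 and 6377 in KO. Of 6 T cell markers 1 was tested and did not pass.

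**Figure D5:**
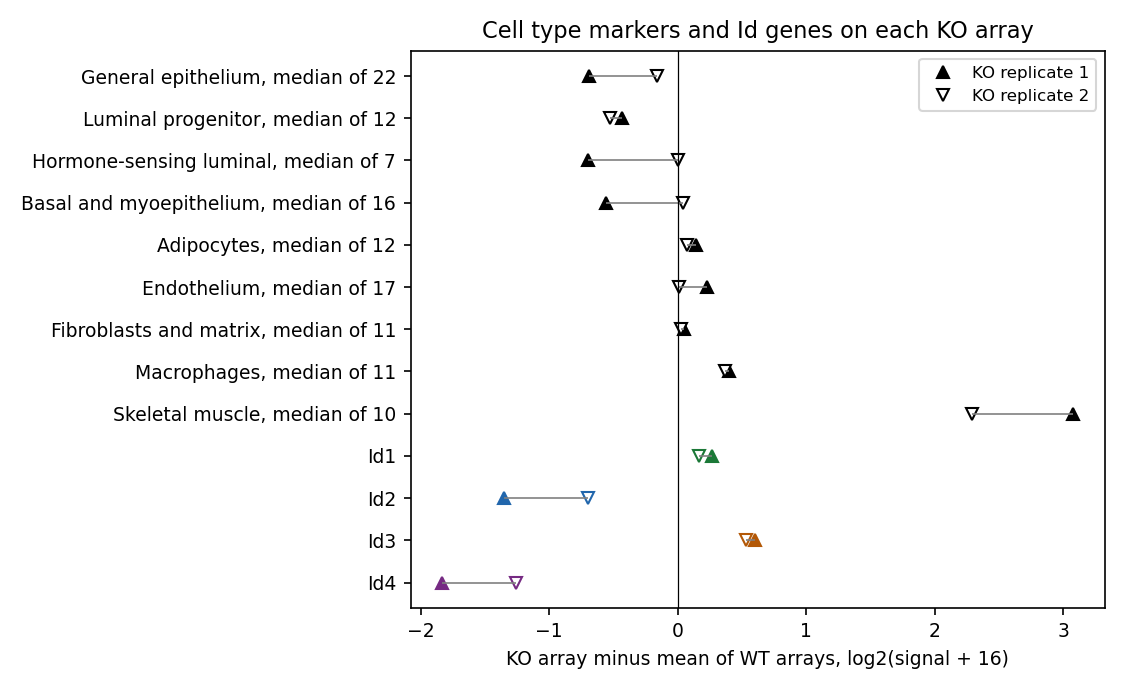
Difference of KO replicate 1 (filled triangles) and KO replicate 2 (open triangles) from the mean of the WT arrays, on the log2(signal + 16) scale. Shown are the median of the tested markers of each cell type with more than 1 of them, and the brightest probe set of each Id gene. B cells and T cells are not drawn. Of the 10 skeletal muscle markers, 8 had a WT mean under the limit and were tested through their KO signal, so the filter favours a high median there. Id4 lies at -1.83 and -1.25 and Id2 at -1.35 and -0.70, while Id1 and Id3 lie above 0 on both.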

How the data were processed

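The authors deposited 1 linear intensity per probe set and array. MAS5 produced it, per the submitters' processing notes; its version and settings are not given in the sources used here. The mean after leaving out the lowest and highest 2% was 500 on each array, as read from the values the authors deposited. Precision is limited by the number of arrays, and detection calls were not used here. Genotype came from the labels, and replicates were numbered in order of deposit, so equal numbers pair no animals. Of 45101 probe sets 64 controls were left out. Of the rest, 34945 had 1 symbol, 932 had several and 9160 are unnamed here, and no symbol changed through the Entrez identifiers. A gene was represented by its brightest probe set over the 4 arrays.

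limma 3.58.1 in R 4.3.3 (lmFit, eBayes with a trend) compared KO with WT, with 2 residual degrees of freedom per probe set, and was tested on simulated data. Standard errors and intervals are from this fit. P-values reflect the spread among these 4 arrays alone. The members, lists and rules were chosen with earlier results of these data known. Named genes are all Id probe sets, all E proteins and BMP SMADs, and from other pathway lists up to 4 past the threshold by p or, failing that, the 2 largest differences. Cell cycle and marker lists are given mainly by counts. For each Id gene the 3 nearest profiles are named, except the nearest for Id1, which is not reported here. Of 298 list entries 281 were on the array with 1 symbol.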

Additional observations from a re-analysis of the deposited data

How the results depend on the processing

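The sign of each Id gene's difference was the same under all alternatives run: a pseudocount of 1 or 64, quantile normalization, median centring, centring on epithelial markers, no filter, a 75th percentile filter, no variance trend, the mean of a gene's probe sets and each array left out. With an array left out, the lone sample of its genotype is assumed to vary like the other genotype. The Id4 difference lost its call at -1.54 without a filter, with the 75th percentile filter and without a variance trend, and at -1.15 after epithelial centring, and leaving out single arrays gave -1.85 to -1.24. For Id2, leaving out single arrays gave -1.35 to -0.70. The number of Id probe sets lower past the threshold was 3, and 1 centred on epithelial markers, 0 without a filter, 0 without a trend and 0 to 5 with an array left out. Over all probe sets, 235 were lower and 215 higher. With the 75th percentile filter the numbers were 76 and 106, with no filter 18 and 20, and without a trend 109 and 96. After epithelial centring 70 were lower. With an array left out they ran from 17 to 673 lower and from 50 to 348 higher. No paired analysis was possible because the labels give the samples no shared replicate numbers.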
